A study of Mus musculus with 6 samples.

Results

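Ubiquitin-conjugating (E2) enzymes were followed at the level of their mRNA in RAW264.7, an established mouse macrophage cell line, after knockdown of Ep300, the gene of the lysine acetyltransferase and transcriptional coactivator p300. The members were all rows of the deposited count table whose symbol begins with Ube2 and a further letter, without the 3 rows marked as pseudogenes by the suffix -ps, which left 40 of 49492 rows. Cells received either an siRNA against Ep300 or a negative control siRNA, each at 50 nM for 48 h with the riboFECT CP transfection reagent, and poly(A)-selected RNA was sequenced from 3 libraries per group. Whether the 3 libraries of a group were grown as separate cultures is not stated, so each p-value reflects library-to-library spread that may be technical. Loss of Ep300 and other effects of its siRNA cannot be told apart.

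The total counts were 29993567, 35079257 and 37132333 in Ep300 siRNA libraries and 45377510, 36018207 and 35930658 in control siRNA libraries. Ep300 itself had 51.1, 59.0 and 54.9 counts per 1000000 (CPM, scaled by the TMM method) in Ep300 siRNA cells, against 106.8, 115.3 and 118.4 CPM in control siRNA cells, a fold of 0.485 (edgeR quasi-likelihood test, Benjamini-Hochberg adjusted p = 3.62e-05). Of 10 macrophage markers, 9 averaged at least 1 CPM, Mertk being the exception, with a summed level of 11050 to 11999 CPM in Ep300 siRNA libraries and 9780.5 to 11434 CPM in control siRNA libraries. That sum rests largely on Lyz2, which averaged 8262.9 CPM in Ep300 siRNA cells and 7471.2 CPM in control siRNA cells. Single markers had log2 fold changes of both signs, such as Adgre1 (-0.23 ± 0.07) and Cd68 (0.13 ± 0.07). None of the 9 tested markers passed. The 20 markers of other cell types summed to 3.08 to 3.48 CPM in Ep300 siRNA libraries and 2.89 to 4.05 CPM in control siRNA libraries, and Epcam, Ly6g and Mcpt4 were at 0 in every library. Library 1 of the Ep300 siRNA group stood apart in the row Gm42418, with 5823 CPM, against 2174 and 1363 CPM in the other Ep300 siRNA libraries and 1327 to 1529 CPM in control siRNA libraries, so the result for Ube2g2 below is also given without it.

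Ubiquitin is passed along a cascade in which an E1 enzyme activates it, an E2 enzyme carries it as a thioester on a catalytic cysteine, and an E3 ligase brings the loaded E2 to the substrate. The E2 largely sets which kind of chain is built, and a separate set of E2s carries the ubiquitin-like modifiers SUMO, NEDD8 and ISG15. In macrophages, E2s are best known for building the chains used in innate immune signalling and for the interferon-induced ISG15 system.

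The catalytic cysteine follows a conserved His-Pro-Asn stretch in most E2s. His-Pro-Asn codons were found in 23 of the 37 members for which the GENCODE M21 annotation gives a complete coding sequence. The stretch from those codons to the codon after the cysteine is shown for Ube2g2, the member that passed the test, for its paralog Ube2g1, and for Ube2r2 and Ube2c, the members next in order of p, with the cysteine codon in capitals.
Ube2g2: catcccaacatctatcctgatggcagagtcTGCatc
Ube2g1: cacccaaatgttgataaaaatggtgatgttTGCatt
Ube2r2: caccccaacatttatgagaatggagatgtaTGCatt
Ube2c: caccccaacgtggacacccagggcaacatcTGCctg
The capitals are codon 89 of 165 in Ube2g2, codon 90 of 170 in Ube2g1, codon 93 of 238 in Ube2r2 and codon 114 of 179 in Ube2c.

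One E2 gene fell and none rose past the threshold of an adjusted p of 0.05. Of the 40 members, 31 had enough reads to be tested, 1 of those 31 (3.23%) passed, Ube2g2, and 30 did not. Over all 15741 genes tested, 1068 (6.78%) passed, 435 (2.76%) of them higher and 633 (4.02%) lower in Ep300 siRNA cells. Among the 10340 genes that averaged at least 5 CPM, as every tested member did, 986 (9.54%) passed. DESeq2 called 3 members, Ube2g2 and Ube2c lower and Ube2r2 higher. At an unadjusted p under 0.05 in edgeR stood 6 members (19.4%), 4 higher and 2 lower, against 22.2% of all genes. The 2 groups of libraries did not overlap for 7 members (22.6%), a share below the 27.5% of all genes, with Ube2r2, Ube2k, Ube2e2 and Ube2e1 on the higher side and Ube2g2, Ube2c and Ube2o on the lower side. In bulk RNA, fewer cells with a transcript and less of it per cell cannot be told apart.

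For most members the difference between the groups was small relative to other genes. Their mean levels ran from 6.49 to 247 CPM, and the standard errors of their log2 fold changes (Ep300 siRNA over control siRNA) from 0.057 to 0.141, with a median of 0.073. The median log2 fold change was 0.03 over the members and -0.004 over all genes tested (-0.008 and -0.038 when scaled by library size alone), and the median absolute change was 0.085 over the members, against 0.141 over all genes and 0.11 over the 10340 genes of at least 5 CPM. For 18 members the change was under 0.1 on the log2 scale. For 28 of the 31 the 95% interval lay within 0.5 either side of 0, that is within 1.41-fold, the exceptions being Ube2g2, Ube2c and Ube2e2.

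**Figure D1:**
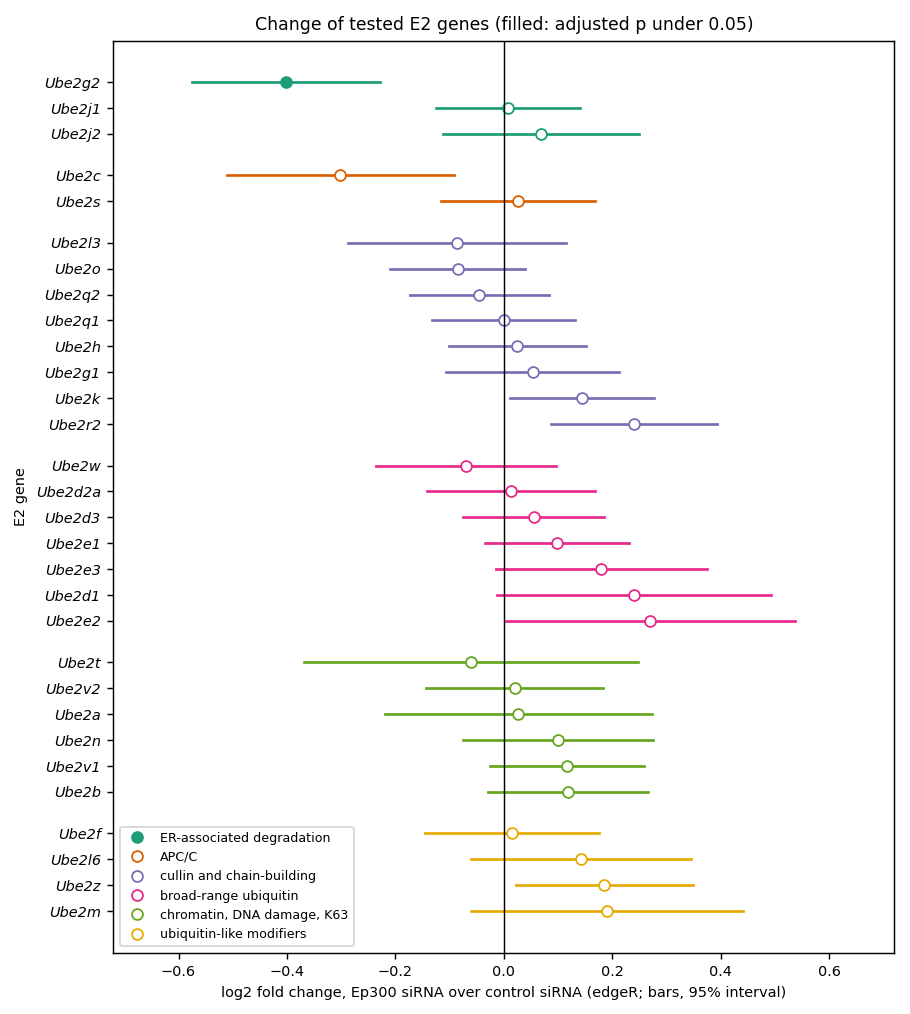
Log2 fold change of tested E2 genes (Ep300 siRNA over control siRNA, edgeR) with 95% intervals, grouped and coloured by role, with a filled circle for an adjusted p under 0.05. Ube2g2, at -0.40, has the only filled circle.

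The E2s of endoplasmic-reticulum-associated degradation, which serve the ligases that clear misfolded proteins from that compartment, held the one member that fell. Ube2g2, the soluble E2 that works with the ligase synoviolin, had 27.8, 24.4 and 27.9 CPM in Ep300 siRNA cells, against 32.9, 37.9 and 35.2 CPM in control siRNA cells. All 3 Ep300 siRNA libraries were below all 3 control siRNA libraries. The means were 26.7 ± 2.01 CPM in Ep300 siRNA cells and 35.3 ± 2.52 CPM in control siRNA cells (SD, n = 3 each), a fold of 0.757 with a 95% interval of 0.671 to 0.853. The log2 fold change was -0.40 ± 0.08 (SE; edgeR adjusted p = 0.0118). The reads behind it were 816, 846 and 1034 counts in Ep300 siRNA libraries and 1523, 1360 and 1286 counts in control siRNA libraries. Ube2g2 (ENSMUSG00000009293.17) lies on the plus strand at chr10:77622275-77645993 of GRCm38. Its exons share 166 bases (6.8%) with the same-strand gene model Gm49325, which has no row in the deposited count table.

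The call of Ube2g2 depended on 2 of the 6 libraries. Without library 1 of the Ep300 siRNA group, the one with high Gm42418, Ube2g2 was again the 1 member that passed (log2 fold change -0.42, adjusted p = 0.0211). Without library 2 of the Ep300 siRNA group the log2 fold change was -0.34 (adjusted p = 0.0559), and without library 2 of the control siRNA group it was -0.34 (adjusted p = 0.0666). No member passed in either of those fits.

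The other E2s of this compartment, the membrane-anchored Ube2j1 and Ube2j2, did not pass the test. Ube2j1 averaged 49.4 ± 2.22 CPM in Ep300 siRNA cells and 49.1 ± 1.26 CPM in control siRNA cells, and Ube2j2 averaged 47.5 ± 4.65 CPM in Ep300 siRNA cells and 45.3 ± 3.35 CPM in control siRNA cells. Syvn1, the gene of synoviolin, was at 0.16 ± 0.09 on the log2 scale and did not pass (edgeR adjusted p = 0.324). Aup1, which recruits Ube2g2 to lipid droplets and to the ligase complex, was at 0.02 ± 0.07.

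The pair of E2s of the anaphase-promoting complex (APC/C), the ligase that drives mitotic exit, did not pass. Ube2c, which starts ubiquitin chains on APC/C substrates, had 38.4, 34.7 and 46.7 CPM in Ep300 siRNA cells, against 47.3, 48.9 and 51.7 CPM in control siRNA cells. Its groups did not overlap, but library 3 of the Ep300 siRNA group lay just below the lowest control siRNA library. The log2 fold change was -0.30 ± 0.10 (edgeR adjusted p = 0.0865), and without that library it was -0.43 (adjusted p = 0.0167). DESeq2 gave an adjusted p of 0.0411, and over the alternatives tried it ran from 0.00324 to 0.252. Ube2s, which elongates those chains, averaged 69.8 ± 0.224 CPM in Ep300 siRNA cells and 68.5 ± 5.00 CPM in control siRNA cells. The 4 APC/C genes in the pathway lists did not pass either and had both signs. The catalytic subunit genes Anapc11 and Anapc2 were at -0.31 ± 0.12 (adjusted p = 0.154) and 0.12 ± 0.06 (adjusted p = 0.252), and the coactivator genes Cdc20 and Fzr1 at -0.19 ± 0.12 (adjusted p = 0.372) and 0.17 ± 0.07 (adjusted p = 0.198). Tnnc2, which overlaps 22.8% of the Ube2c exons on the opposite strand, had at most 6 counts in any library.

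Ube2c is a gene of the cell division programme, whose promoters are known for CCAAT boxes and a downstream cell cycle homology region. In the RefSeq promoter of Ube2c (GRCm38.p6, chr2:164769679-164769978, 250 bases before to 50 after the start), CCAAT was found 6 times over both strands and TTTGAA once, as its reverse complement in capitals here, 29 bases before the start, shown with 20 bases on either side (chr2:164769880-164769925, plus strand).
Ube2c: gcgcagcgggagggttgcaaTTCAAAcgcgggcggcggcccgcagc
The CCAAT matches of Ube2c that begin at -186 and -183 from the start overlap on opposite strands, so the matches are not all separate sites. Both strands were searched over 32851 promoters, of which 37.4% held CCAAT and 17.9% held TTTGAA. Of the 31 members with a promoter entry, 10 (32.3%) held CCAAT and 5 (16.1%) held TTTGAA in any of their promoters. Members were counted as genes and the background as single promoters, so the shares have unlike units. Neither share was higher among the members, and a match is a description of the letters only. Ube2g2 has no entry in that table.

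The next role took in E2s of cullin-RING ligases, of chains linked through lysine 48 and of other ubiquitin chains. In it 8 of 9 members were tested and none passed. Of the changes 4 were positive and 4 negative, with a median of 0.01 on the log2 scale. Ube2r2, a paralog of Cdc34 that extends chains for cullin-RING ligases, had 40.2, 38.7 and 37.8 CPM in Ep300 siRNA cells, against 35.5, 32.4 and 30.8 CPM in control siRNA cells. Every Ep300 siRNA library was above every control siRNA library, and the log2 fold change was 0.24 ± 0.07 (edgeR adjusted p = 0.0653). The adjusted p ran from 0.0251 to 0.185 over the alternatives, with 0.0436 in DESeq2 and 0.0251 without library 1 of the control siRNA group. Cdc34 itself was at 0.03 ± 0.07. Ube2k, which makes chains linked through lysine 48, had 182.1, 176.3 and 169.3 CPM in Ep300 siRNA cells, against 154.2, 156.2 and 167.0 CPM in control siRNA cells, a change of 0.14 ± 0.06 with groups just apart (adjusted p = 0.184).

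The remaining members of that role were within 0.1 of 0 on the log2 scale. Ube2g1, the paralog of Ube2g2 that serves cullin-RING ligases, averaged 20.1 ± 0.249 CPM in Ep300 siRNA cells and 19.4 ± 0.969 CPM in control siRNA cells. Ube2q1 averaged 219.0 ± 5.69 CPM in Ep300 siRNA cells and 219.0 ± 10.1 CPM in control siRNA cells, and Ube2q2 averaged 99.9 ± 0.509 CPM in Ep300 siRNA cells and 103.1 ± 5.11 CPM in control siRNA cells. Ube2h, the E2 of the CTLH ligase, changed by 0.02 ± 0.06. Ube2o, a large enzyme with both E2 and E3 activity, had 44.0, 43.4 and 44.3 CPM in Ep300 siRNA cells, against 46.4, 47.6 and 45.8 CPM in control siRNA cells; the groups were apart, but the difference of -0.09 ± 0.06 did not pass (adjusted p = 0.424). Ube2l3, the partner of HECT and RBR ligases such as the linear-chain assembly complex, was at -0.09 ± 0.09, and its opposite-strand neighbour Ydjc, which covers 28.6% of its exons, was also at -0.09 ± 0.09.

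The broad-range E2s, the UBE2D, UBE2E and UBE2W enzymes that work with many RING ligases, had 7 of 10 members tested, and none passed. Their median was 0.10, with 6 positive changes and 1 negative. Ube2e2 was the member of smallest p, with 7.95, 7.21 and 6.16 CPM in Ep300 siRNA cells, against 5.81, 5.99 and 5.83 CPM in control siRNA cells. Its groups did not overlap, and the log2 fold change was 0.27 ± 0.12 (edgeR adjusted p = 0.218). Ube2d1 had 13.4, 13.3 and 10.1 CPM in Ep300 siRNA cells, against 10.2, 10.5 and 10.4 CPM in control siRNA cells, so that library 3 of the Ep300 siRNA group lay below all 3 control siRNA libraries (0.24 ± 0.12, adjusted p = 0.253). Ube2e3 was at 0.18 ± 0.09 and Ube2e1 at 0.10 ± 0.06. Ube2d3, the most abundant of these, averaged 251.5 ± 4.68 CPM in Ep300 siRNA cells and 242.1 ± 10.2 CPM in control siRNA cells. Ube2d2a was at 0.01 ± 0.07, and Ube2w, which ubiquitylates protein amino termini, at -0.07 ± 0.08.

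The 6 E2s of chromatin, DNA damage tolerance and chains linked through lysine 63 were all tested, and none passed. Ube2v1, a catalytically inactive E2 variant that pairs with Ube2n to make the lysine 63 chains of Toll-like receptor signalling, had 108.0, 98.1 and 101.7 CPM in Ep300 siRNA cells, against 89.0, 95.2 and 99.7 CPM in control siRNA cells. The groups overlapped, and the change was 0.12 ± 0.06 (edgeR adjusted p = 0.326). The overlapping gene model Gm20431 shares 61.5% of the Ube2v1 exons on the same strand, so reads of the pair cannot be fully told apart, and it was at 0.05 ± 0.07. Ube2n averaged 83.7 ± 1.52 CPM in Ep300 siRNA cells and 78.1 ± 9.19 CPM in control siRNA cells, and Ube2v2, the variant used in DNA damage tolerance, averaged 20.1 ± 1.01 CPM in Ep300 siRNA cells and 19.8 ± 0.709 CPM in control siRNA cells.

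The RAD6 homologues, which monoubiquitylate histone H2B with the RNF20 and RNF40 ligase, did not pass either. Ube2a was at 0.03 ± 0.11 and Ube2b at 0.12 ± 0.07 on the log2 scale. Ube2t, the E2 of the Fanconi anaemia pathway, had the widest spread within a group of any tested member, a coefficient of variation of 18.6% in control siRNA libraries. It had 7.78, 8.05 and 9.61 CPM in Ep300 siRNA cells, against 10.7, 7.72 and 8.05 CPM in control siRNA cells, and the groups overlapped fully.

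The 5 E2s of the ubiquitin-like modifiers were all tested, and none passed. Their median was 0.14 on the log2 scale. Ube2z, which takes FAT10 and ubiquitin from UBA6, had the smallest p, with 46.5, 39.8 and 42.3 CPM in Ep300 siRNA cells, against 39.9, 37.4 and 35.5 CPM in control siRNA cells (0.19 ± 0.07, edgeR adjusted p = 0.164). Its groups overlapped by 1 pair of libraries at 39.8 and 39.9 CPM.

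Ube2l6, the E2 of ISG15, varied within both groups. It had 158.8, 184.9 and 206.9 CPM in Ep300 siRNA cells, against 152.0, 176.9 and 170.2 CPM in control siRNA cells, and library 1 was the lowest of its group on both sides (0.14 ± 0.09, edgeR adjusted p = 0.409). The same held for its modifier Isg15, with 46.3, 95.5 and 87.9 CPM in Ep300 siRNA cells, against 50.3, 87.2 and 82.8 CPM in control siRNA cells. Herc6, the mouse ISG15 ligase, had 96.7, 166.0 and 149.2 CPM in Ep300 siRNA cells, against 97.4, 123.3 and 125.7 CPM in control siRNA cells. For each of these 3 genes the lowest library of either group was number 1, and neither Isg15 (0.07 ± 0.24) nor Herc6 (0.25 ± 0.16) passed. Its activating enzyme Uba7 had 23.4, 36.2 and 34.5 CPM in Ep300 siRNA cells, against 30.3, 29.9 and 34.7 CPM in control siRNA cells.

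The E2s of NEDD8, the modifier that activates cullin-RING ligases, did not pass the test, while the modifier gene fell. Ube2m, the NEDD8 E2 of most cullins, had 28.4, 25.7 and 23.3 CPM in Ep300 siRNA cells, against 25.4, 18.5 and 23.9 CPM in control siRNA cells (0.19 ± 0.11, edgeR adjusted p = 0.370). Ube2f, the NEDD8 E2 of cullin 5, was at 0.02 ± 0.07. Nedd8 had 111.5, 106.0 and 107.2 CPM in Ep300 siRNA cells, against 138.9, 133.1 and 134.9 CPM in control siRNA cells, groups far apart relative to their spread. The log2 fold change of Nedd8 was -0.33 ± 0.06 (adjusted p = 0.00591), a fold of 0.798. Gmpr2, which overlaps 14.6% of the Nedd8 exons on the opposite strand, was at 0.13 ± 0.07. Dcun1d3, a cullin neddylation factor, also fell, with 18.6, 19.3 and 18.8 CPM in Ep300 siRNA cells, against 23.5, 24.5 and 21.5 CPM in control siRNA cells (-0.29 ± 0.08, adjusted p = 0.0401). That call was lost in 5 of the 6 fits that left out a library, each without library 1, 2 or 3 of the Ep300 siRNA group or library 1 or 2 of the control siRNA group, with an adjusted p of up to 0.162.

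**Figure D2:**
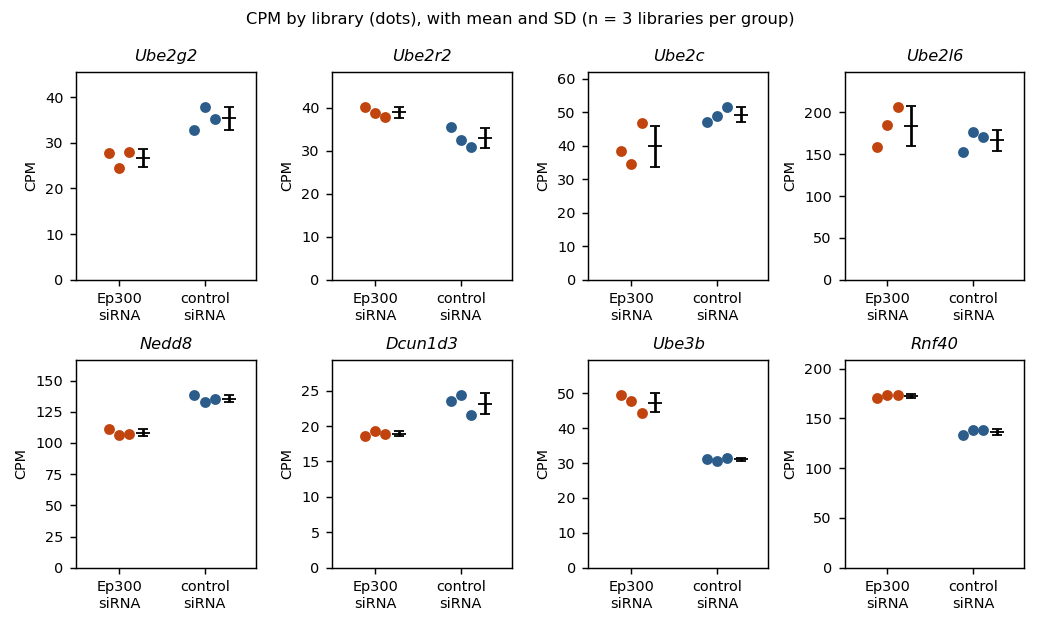
CPM in each library for 4 E2 genes (upper row) and 4 genes of the wider pathway (lower row), with mean and SD (n = 3 per group). All Ep300 siRNA libraries lie below the control siRNA libraries for Ube2g2, Nedd8 and Dcun1d3, and narrowly so for Ube2c. They lie above them for Ube2r2, Ube3b and Rnf40, while the groups overlap for Ube2l6.

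The 9 members that were not tested had at most 12 counts in any library. Ube2u, Ube2dnl1 and Ube2dnl2 had 0 counts in every library. If each count is an independent read, a count of 0 allows up to 3 counts, or 0.0661 to 0.1 CPM depending on the library. Where each mate of a pair was counted, the limit would be higher. Ube2cbp had 6, 4 and 8 counts in Ep300 siRNA libraries and 12, 4 and 10 counts in control siRNA libraries, and Ube2ql1 had 2, 2 and 2 counts in Ep300 siRNA libraries and 0, 2 and 2 counts in control siRNA libraries. The other 4, Ube2d2b, Ube2d4, Ube2nl and Ube2uos, had no more than 2 counts in a library. Of these, Ube2d4 and Ube2nl are annotated as processed pseudogenes and Ube2uos as an antisense gene. No difference was detectable for these members at this depth.

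Levels between genes were compared as CPM per kilobase of annotated transcript. The 5 highest members stood in the same order in both groups. Among them were Ube2l6, at 117.6 ± 15.4 CPM per kilobase in Ep300 siRNA cells and 106.6 ± 8.25 CPM per kilobase in control siRNA cells, and Ube2k at 113.3 ± 4.13 CPM per kilobase in Ep300 siRNA cells and 102.5 ± 4.44 CPM per kilobase in control siRNA cells. Ube2l6 and Ube2k did not differ beyond the spread of Ube2l6 in either group. By their control siRNA level, the lowest tested members were Ube2g1, at 5.20 ± 0.0644 CPM per kilobase in Ep300 siRNA cells and 5.02 ± 0.250 CPM per kilobase in control siRNA cells, then Ube2e2 at 6.68 ± 0.846 CPM per kilobase in Ep300 siRNA cells and 5.52 ± 0.0957 CPM per kilobase in control siRNA cells, and Ube2d1 at 8.57 ± 1.33 CPM per kilobase in Ep300 siRNA cells and 7.25 ± 0.0829 CPM per kilobase in control siRNA cells. In Ep300 siRNA cells the difference between Ube2e2 and Ube2d1 was under the sum of their SDs. Ube2g2 stood at rank 22 of the 31 in Ep300 siRNA cells and at rank 19 in control siRNA cells. The transcripts of these genes differ in annotated length, and the choice of length moves the order.

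**Figure D3:**
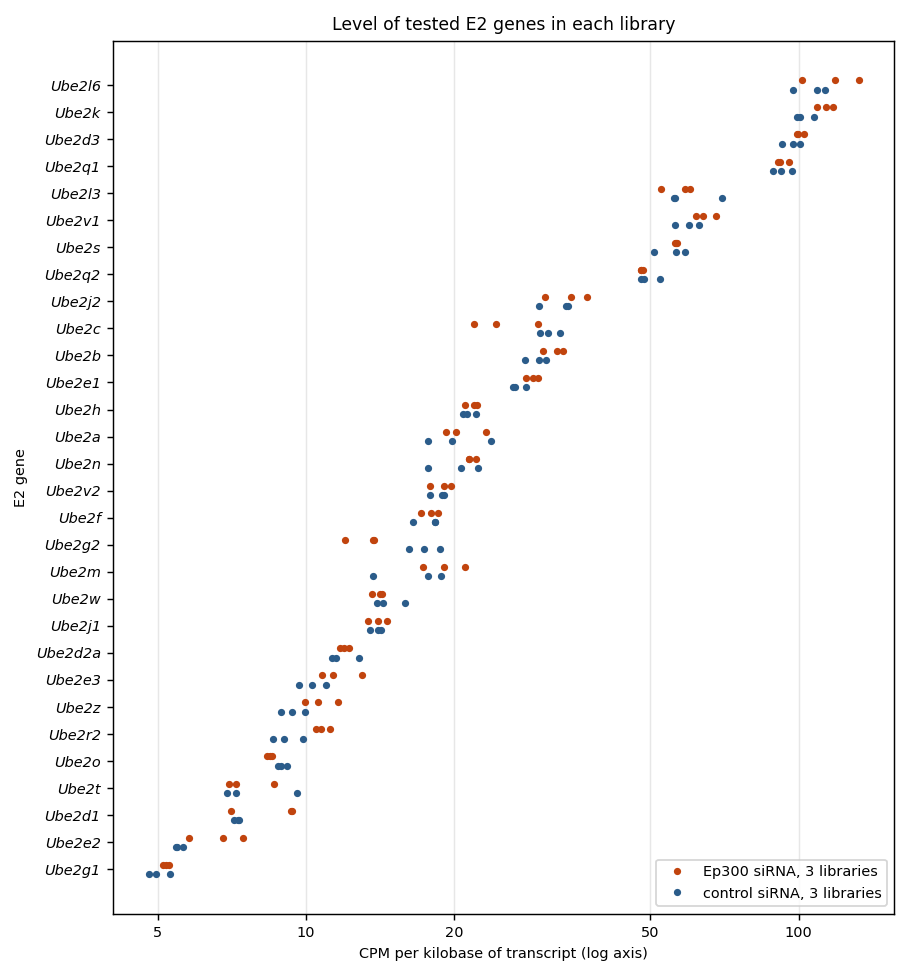
Level of tested E2 genes in each library, as CPM per kilobase of transcript on a log axis. The libraries of both groups sit close together for nearly every gene, from Ube2g1, averaging 5.02 in control siRNA cells, to Ube2l6, averaging 106.6 in control siRNA cells.

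Added together, all 40 members, tested or not, made up 2133.8, 2094.5 and 2141.3 CPM in Ep300 siRNA libraries. In control siRNA libraries they made up 2085.6, 2057.2 and 2063.8 CPM. The sums were just apart, and their ratio was 1.026-fold. With scaling by library size alone the log2 ratio was 0.0035, so the size of this difference depends on the scaling. The 5 most abundant members made up 45.6% to 47.3% of each sum.

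Of 9 pairs of related E2 genes, the within-library balance differed most between the groups in Ube2g1 and Ube2g2. The log2 ratio of Ube2g1 to Ube2g2 counts was -0.49, -0.28 and -0.45 in Ep300 siRNA libraries, against -0.82, -0.89 and -0.87 in control siRNA libraries, a difference of 0.46. This ratio rests on the same Ube2g2 counts as the test above and is not independent of it. For Ube2v1 and Ube2v2 it was 2.37, 2.37 and 2.32 in Ep300 siRNA libraries, against 2.23, 2.23 and 2.31 in control siRNA libraries, a difference of 0.10. Both pairs had groups that did not overlap, with an exact permutation p of 0.1, the smallest that 3 against 3 allows, and an adjusted p of 0.45 over the 9 pairs. The other 7 pairs overlapped, with exact two-sided p from 0.4 to 0.8 and differences from -0.19 (Ube2f and Ube2m) to 0.22 (Ube2l6 and Ube2l3).

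The pairs differ in how far their reads could be confused. The coding sequences of Ube2a and Ube2b were 77.6% identical with a longest shared run of 17 bases, and those of Ube2g1 and Ube2g2 were 57.2% identical with a longest shared run of 11 bases. The longest run in any pair was 26 bases, in Ube2e1 and Ube2e3.

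**Figure D4:**
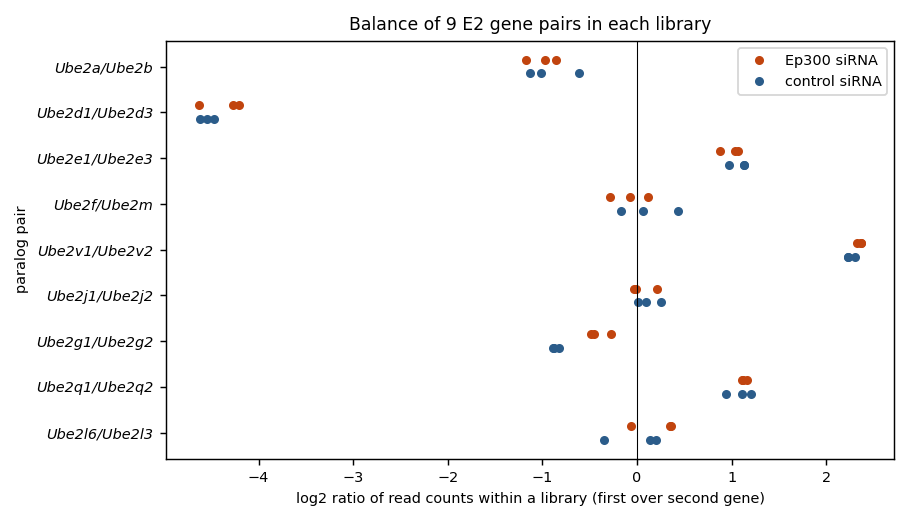
Log2 ratio of read counts within a library for 9 pairs of E2 genes (first over second gene), in Ep300 siRNA and control siRNA libraries. The groups are apart for Ube2g1/Ube2g2 and Ube2v1/Ube2v2 and overlap for the other 7 pairs.

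The rest of the pathway was read from 84 genes in 4 lists, all of them tested, of which 2 rose and 2 fell. Over all 15741 genes tested, 6.78% passed, 2.76% higher and 4.02% lower. None of the 9 E1 genes passed, and Uba1, the main ubiquitin E1, had the smallest p among them, with 175.0, 160.2 and 157.8 CPM in Ep300 siRNA cells, against 139.5, 150.1 and 148.2 CPM in control siRNA cells (0.17 ± 0.06, edgeR adjusted p = 0.135). None of the 9 E2-fold genes outside the symbol rule passed, the smallest p being that of Ufc1, the E2 of UFM1, at 0.23 ± 0.08 (adjusted p = 0.105). Of 13 modifier genes Nedd8 alone passed. Ubb, a polyubiquitin gene, was at 0.18 ± 0.08 (adjusted p = 0.202).

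Of 53 E3 ligase and cofactor genes, 2 rose and 1 fell, Dcun1d3, where 6.78% of all genes tested passed. The median change over the list was -0.02. Ube3b, a HECT-type ligase, had 49.7, 47.8 and 44.4 CPM in Ep300 siRNA cells, against 31.3, 30.6 and 31.4 CPM in control siRNA cells, a 1.52-fold difference (log2 0.60 ± 0.06, edgeR adjusted p = 0.000564). Rnf40, the partner of Ube2a and Ube2b in H2B monoubiquitylation, had 170.7, 174.1 and 173.9 CPM in Ep300 siRNA cells, against 133.3, 138.4 and 138.5 CPM in control siRNA cells, a 1.26-fold difference (log2 0.34 ± 0.06, adjusted p = 0.00464). Its partner ligase gene Rnf20 was at -0.02 ± 0.06. The antisense gene Gm44759, which overlaps 3.8% of the Rnf40 exons, had 8.58 CPM in Ep300 siRNA cells and 6.39 CPM in control siRNA cells and also rose (0.43, adjusted p = 0.0294). Ube3b, Rnf40 and Nedd8 passed in every fit tried.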

How the data were processed

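RNA from RAW264.7 cells was measured as 1 deposited table of read counts per gene, 3 libraries for each siRNA. The submitters' processing notes name GRCm38, featureCounts, STAR 2.5.3a, fastp 0.23.4 and edgeR 3.12.1. For the annotation, the strand setting and multiply mapped reads, the authors' choice is not given in the sources. Between 79.8% and 80.9% of counts from 1 to 4 were even, as where each mate of a pair is counted, so counts halved before the fit were an alternative.

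The deposited counts entered the quasi-likelihood F-test of edgeR 4.0.16 (under R 4.3.3; TMM, filterByExpr, Benjamini-Hochberg over 15741 genes, threshold 0.05, no replicate block). The biological coefficient of variation was 8.62%. On simulated counts for 15517 genes, 58, 80, 90 and 96% of genes changed 1.5, 2, 4 and 8-fold were recovered. Of the 176 calls in that simulation, 14 were genes that had not been changed. Its smallest change, 1.5-fold, was larger than that of Ube2g2 (a fold of 0.757), so recovery at that size was not tested. Alternatives were DESeq2 1.42.0, limma 3.58.1 (voom), other scalings and filters, the replicate number as a block, and each library left out. Replicates differed beyond sampling noise. Gene positions come from GENCODE M21, in which 47229 of 49492 symbols were found. Named genes were Ep300, every member that passed, the member of smallest p in each role, the 3 highest and 3 lowest levels, paralog pairs, the member of widest spread, and every pathway gene that passed or the one of smallest p where none did; other pathway genes are named as partners of these. A few of these genes count in the totals but are not reported here by name or value. Members and lists were chosen with earlier results of these data known.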

Additional observations from a re-analysis of the deposited data

How the results depend on the processing

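Ube2g2 kept its direction under every alternative, and its call except at an adjusted p under 0.01 and without library 2 of the Ep300 siRNA group or library 2 of the control siRNA group. Its log2 change ran from -0.4484 to -0.3392 with a library left out. The number of E2 members that passed was 3 with DESeq2 (Ube2c, Ube2g2, Ube2r2), 2 with no filter on low counts, 0 at an adjusted p under 0.01, and 0 to 2 with a library left out. Over all genes 1721 passed with no filter, 369 at 0.01, and 490 to 1054 with a library left out. Of the pathway genes 10 passed with no filter and 3 to 7 with a library left out. DESeq2 called 1436 genes. With library size alone the split was 316 higher and 788 lower, against 435 higher and 633 lower with TMM. The causes of these differences were not tested.

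Whether the replicate numbers pair the samples could not be decided from 3 libraries per group. Deviations from the group mean correlated at 0.087, 0.02 and -0.047 between same-numbered libraries of the 2 groups. Between differently numbered libraries the correlations ran from -0.101 to 0.088. With the replicate block 1357 genes and 3 members passed (Ube2c, Ube2g2, Ube2r2).

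The members' median log2 change was 0.0343 with DESeq2, -0.008 with library size alone, 0.0186 with no filter, 0.0372 with the replicate block, and 0.0359 to 0.0763 with a library left out. The log2 ratio of the summed level was 0.0035 with library size alone. Members near 0 changed sign without a call. With library size alone these were Ube2s (-0.0085), Ube2f (-0.0176), Ube2j1 (-0.0264), Ube2a (-0.008), Ube2v2 (-0.0139), Ube2d2a (-0.0215) and Ube2h (-0.009). Ube2j1 was at -0.0001 with no filter. Ube2q1 was at 0.0063 with DESeq2 and with relative-log-expression scaling, 0.0009 with at least 1 CPM in 3 libraries, 0.0007 with voom and with the replicate block, 0.0006 with upper-quartile scaling and 0.0002 without mitochondrial and Gm42418 rows. With a library left out the ranges that crossed 0 were -0.0209 to 0.0756 for Ube2s, -0.0284 to 0.054 for Ube2f, -0.0156 to 0.0415 for Ube2j1, -0.0622 to 0.1567 for Ube2a, -0.1618 to 0.1125 for Ube2t, -0.006 to 0.0605 for Ube2v2, -0.0173 to 0.0763 for Ube2d2a, -0.1343 to 0.0341 for Ube2l3, -0.0212 to 0.0401 for Ube2q1 and -0.0664 to 0.0058 for Ube2q2. For the pairs they were -0.1851 to 0.0734 for Ube2a and Ube2b, -0.1369 to 0.0079 for Ube2j1 and Ube2j2, and -0.0258 to 0.105 for Ube2q1 and Ube2q2.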
